A study of Mus musculus with 8 samples.

Results

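The dentate gyrus is the entry station of the hippocampal circuit, and its principal neurons are the granule cells. The genes described here are 10 marker genes of dentate granule cells: Prox1, Dsp, C1ql2, C1ql3, Tdo2, Lct, Npnt, Trpc6, Pdyn and Calb1. They were taken as every non-control probe whose gene name in the array files was one of these symbols, which gave 19 of the 41174 non-control probes. Of these, 5 genes had 1 probe each and 5 had more than 1, and Calb1 had a single probe printed in 10 spots. A total of 17 of the 19 probes entered the test, together with 27965 others, and the 2 that did not were dim probes of Dsp. RNA came from the dissected whole hippocampus of 4 BTBR T+ Itpr3tf/J mice (BTBR), an inbred strain used as a model of autism, and of 4 C57BL/6J mice (B6), which served as its controls. The mice were labeled male and 5 months old, received no drug, and were profiled 1 per array. In 1 field of their labels the BTBR samples carry C57BL/6J as background, against their title, source and genotype. The strains differ across the whole genome, so that no difference below can be tied to a single allele.

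Granule cells send their axons, the mossy fibers, to CA3 pyramidal cells and to mossy cells of the hilus. PROX1 is the transcription factor that sets and keeps granule cell identity. C1QL2 and C1QL3 are secreted C1q-like proteins of the mossy fiber synapse, where they gather kainate receptors and bind neurexin 3 and the adhesion receptor BAI3. Prodynorphin (Pdyn) is the precursor of the opioid peptides of mossy fibers, and calbindin (Calb1) buffers calcium in mature granule cells. Both are also made outside the dentate gyrus, Pdyn in the striatum and Calb1 in CA1 pyramidal cells, interneurons and striatum. Desmoplakin (Dsp), the kynurenine pathway enzyme TDO2, lactase (Lct), the matrix protein nephronectin (Npnt) and the cation channel TRPC6 are better known from other organs, but their transcripts mark granule cells within the hippocampus.

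The array reads each transcript with probes of 60 bases, and probe positions below are those of mm9 given in the array files. The probes of C1ql2 and Trpc6 are shown because these genes had the lowest adjusted p-values among the members. Each gene was read by 1 probe, the first at chr1:122238262-122238321 (plus strand) and the second at chr9:8679469-8679528 (plus strand).
C1ql2 A_52_P483959: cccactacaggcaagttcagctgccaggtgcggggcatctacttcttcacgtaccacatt
Trpc6 A_51_P411452: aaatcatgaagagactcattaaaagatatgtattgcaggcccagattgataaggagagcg

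For Dsp, probes along the same gene gave different answers, and 3 of its 4 probes are shown in their order along the plus strand of chromosome 13. The first starts 4641 bases and the second 2463 bases before the last Dsp probe of the array, A_51_P101460. The first was well above background on 0 of 8 arrays, and the second on 2 B6 arrays and 1 BTBR array. The third, which starts 387 bases before the last probe, was well above background on all 8 arrays, as was the last probe itself.
Dsp A_51_P201884: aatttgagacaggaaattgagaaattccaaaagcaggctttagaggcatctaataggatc
Dsp A_52_P549815: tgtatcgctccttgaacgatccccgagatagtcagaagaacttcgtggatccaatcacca
Dsp A_52_P242544: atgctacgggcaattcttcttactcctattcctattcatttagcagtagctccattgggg

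For Npnt, 2 of the 3 probes overlap by 19 bases, written in capitals, and so are not separate readings of the transcript. The first bridges 1302 bases of the minus strand of chromosome 3 with 60 bases of probe.
Npnt A_52_P382785: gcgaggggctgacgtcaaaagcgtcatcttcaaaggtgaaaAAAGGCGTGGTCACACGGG
Npnt A_51_P289889: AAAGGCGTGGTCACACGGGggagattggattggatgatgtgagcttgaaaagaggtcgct

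The 8 arrays lay on 2 slides, with replicates 1 and 2 of both strains on slide 1 and replicates 3 and 4 on slide 2. Between 57.4% (B6 replicate 1) and 72.3% of the spots were well above background, and no spot was saturated. Across 27982 tested probes, 7.61% were called at a limma adjusted p under 0.05, of which 3.31% of all probes were higher and 4.3% lower in BTBR. Before any member is described, 3 arrays need to be named, since they carried the most striatal or thalamic transcript. The summed normalized intensity of 10 striatal marker genes was 156902 on B6 replicate 2, 83844 on BTBR replicate 1 and 373551 on BTBR replicate 2, against 23673 to 41856 on the other 5 arrays. That of 12 thalamic genes was 166981 on BTBR replicate 1, against 23870 to 34324 on all others. That of 9 choroid plexus genes was 79573 on BTBR replicate 1 and 74255 on BTBR replicate 2, against 16302 to 40839 on all others. All 3 arrays lay on slide 1. B6 replicate 2 stood apart in striatal genes only, and its thalamic sum was the lowest of all 8 arrays. The sum of 7 pituitary genes was highest on arrays other than these, with 26457 on BTBR replicate 4 and 18948 on B6 replicate 4, against 3250 to 10460 on the 3 named. Over both strains, 12 of 12 thalamic, 8 of 10 striatal and 8 of 9 choroid plexus genes had a higher mean in BTBR, limma called 0 probes of these lists (0, 0 and 1 had an unadjusted p under 0.05), and the rank product called 7, 3 and 1.

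Of the 10 granule cell markers, Trpc6 alone passed the test, and the arrays of the strains overlapped for every one of the 10 genes. At the brightest probe of each gene, 9 of 10 genes had a lower mean in BTBR and 1, Pdyn, a higher one. The median difference (BTBR minus B6, log2 scale) was -0.62, while the median over all genes tested was 0.01. With Trpc6, 1 of 17 member probes was called lower and 0 were called higher in limma, against 4.3% and 3.31% of all tested probes. Unadjusted p-values under 0.05 were found for 3 member probes and for 5182 of all 27982 tested probes. Both member counts were near the share over all probes. Of all tested probes, 14.2% had arrays that did not overlap between strains. With the rank product, the test the study's methods name, 3.91% of all probes were called at a proportion of false positives of 0.05 or less, and 4 member probes were: C1ql2, Lct, Trpc6 and the brightest of Dsp, all lower in BTBR. Whole tissue was measured, so fewer granule cells and less RNA per granule cell cannot be told apart.

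**Figure D1:**
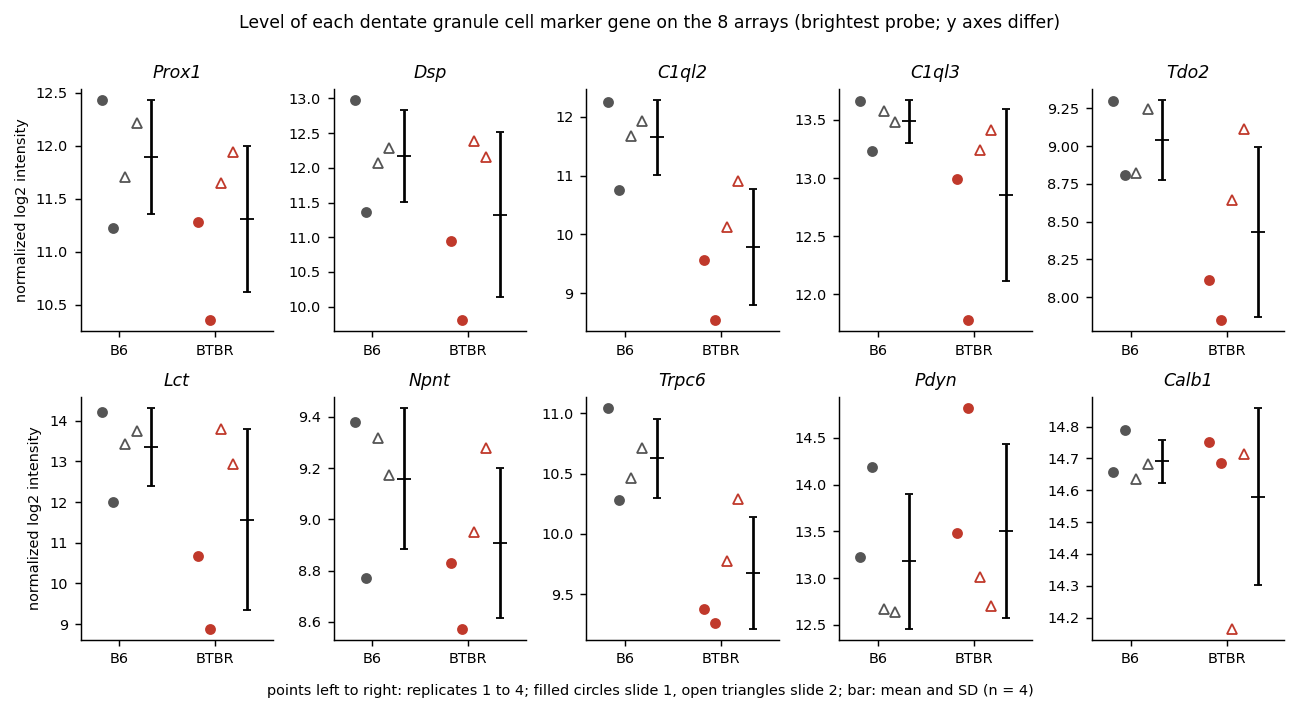
Normalized log2 intensity of the 10 marker genes at their brightest probe, 1 point per array, with filled circles for slide 1, open triangles for slide 2, and mean with SD for each strain (n = 4). C1ql2 and Trpc6 sit lower in BTBR with a narrow overlap, BTBR replicate 2 lies at the bottom for 8 genes, and Pdyn runs the other way.

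C1ql2 had the largest difference of all members. Its log2 intensities in B6 were 12.25, 10.75, 11.68 and 11.92 in replicates 1 to 4, and in BTBR they were 9.56, 8.54, 10.13 and 10.90. A single pair of arrays overlapped: BTBR replicate 4, the highest of its strain, lay above B6 replicate 2, the lowest of its own. The means were 11.65 ± 0.64 in B6 and 9.78 ± 0.99 in BTBR (SD, n = 4). C1ql2 was thus 3.65-fold lower in BTBR, with a log2 difference of -1.87 (95% interval -2.98 to -0.76), and missed the threshold in limma (adjusted p = 0.0543). The exact two-sided permutation test of the 8 arrays gave p = 0.0571, where 0.0286 is the smallest value that 4 against 4 can give. With the slide as a block it passed at the same difference (limma adjusted p = 0.0278). Without the 3 arrays with the most striatal or thalamic transcript, which were left out after the data were seen, the difference was -1.43 and passed (limma adjusted p = 0.0317), in a fit that called 4.23% of all probes. That fit called no other member, and its 1 called member probe was this one. It compared 3 B6 arrays with 2 BTBR arrays. Only B6 kept an array of slide 1, replicate 1, so that strain and slide were not balanced in it.

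C1ql3, the second C1q-like gene of mossy fibers, was read by 2 probes. The brighter one, at chr2:12925724-12925783 on the minus strand, gave 13.66, 13.23, 13.58 and 13.48 in B6 and 12.99, 11.78, 13.24 and 13.41 in BTBR. The B6 arrays were close together, and BTBR replicate 2 stood alone at the low end. The difference was -0.63 with a standard error of 0.32 (limma adjusted p = 0.343), and without the 3 arrays it was -0.25 (limma adjusted p = 0.333). The other probe carries the C1ql3 name for a cDNA on the opposite strand, and its difference was -0.12 (limma adjusted p = 0.729). The mossy fiber partners of these proteins had 6 genes and 9 probes tested, of which limma called 0, the rank product called 0, and 1 had an unadjusted p under 0.05. The kainate receptor subunit gene Grik4 differed by -0.63 (limma adjusted p = 0.324), and the subunits Grik2 and Grik5 by -0.01 and -0.07. The receptor gene Bai3 differed by -0.29, Nrxn3 by 0.07 and C1ql1 by 0.22, none of them called.

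Trpc6 encodes a nonselective cation channel opened by diacylglycerol, and its transcript was the only called member. It measured 11.04, 10.28, 10.46 and 10.71 in B6 and 9.38, 9.26, 9.78 and 10.29 in BTBR. Only BTBR replicate 4 reached the B6 range, and it lay level with B6 replicate 2. Trpc6 was 1.93-fold lower in BTBR, with a difference of -0.95 (95% interval -1.49 to -0.41, limma adjusted p = 0.0458), and the exact permutation test gave p = 0.0571. The call rested on several arrays: it was lost when any array other than BTBR replicate 4 was left out, with adjusted p-values between 0.0532 and 0.124. With the slide as a block it stayed called (limma adjusted p = 0.0380). It was not called with the replicate number as a block (0.0532), with trend and robust moderation (0.0507), with the deposited matrix (0.0514), without the filter on dim probes (0.0614) or with the processed signal (0.0663). Without the 3 arrays with the most striatal or thalamic transcript, the difference was -0.71 (limma adjusted p = 0.169). Among the other channels of the family, 5 genes and 8 probes were tested, limma and the rank product called 0, and 2 had an unadjusted p under 0.05. Trpc4 differed by -0.64 (limma adjusted p = 0.382), Trpc5 by -0.30, Trpc2 by -0.31 and Trpc1 by -0.01.

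Lct, the gene of the intestinal disaccharidase lactase, had the widest spread of all members. Its probe at chr1:130181389-130181448 on the minus strand gave 14.22, 12.00, 13.42 and 13.75 in B6 and 10.66, 8.89, 13.80 and 12.94 in BTBR. The slide 1 arrays of BTBR were far below every other array, while BTBR replicate 3 exceeded 3 of the 4 B6 arrays. The means differed 3.43-fold, or by -1.78 with a standard error of 0.999 (limma adjusted p = 0.404; exact permutation p = 0.229). Without the 3 arrays the difference was -0.43 (limma adjusted p = 0.644), and without BTBR replicate 2 alone it was -0.88.

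Prox1 was measured by 3 probes along the minus strand of chromosome 1. The brightest, at chr1:191942646-191942705, gave 12.43, 11.23, 11.71 and 12.22 in B6 and 11.28, 10.36, 11.65 and 11.94 in BTBR. The ranges overlapped widely, and replicate 2 was the lowest array in both strains. The difference was -0.59 (95% interval -1.41 to 0.24, limma adjusted p = 0.456). It was -0.33 without the 3 arrays (limma adjusted p = 0.612) and -0.27 without BTBR replicate 2 alone. The other probes gave -0.27 and -0.40 (limma adjusted p = 0.385 and 0.295).

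Dsp encodes the plakin that ties desmosomes to intermediate filaments. Its last probe gave 12.98, 11.36, 12.06 and 12.28 in B6 and 10.95, 9.81, 12.38 and 12.15 in BTBR. The slide 2 arrays of BTBR lay among those of B6, and the slide 1 arrays of BTBR lay below all B6 arrays. The difference was -0.85 with a standard error of 0.56 (limma adjusted p = 0.496). It was -0.17 without the 3 arrays (limma adjusted p = 0.863) and -0.34 without BTBR replicate 2 alone. The probe that starts 387 bases before it differed by -0.71 (limma adjusted p = 0.533). The dim upstream probes shown above differed by 0.04 and 0.01 and were not tested. Among further desmosomal genes, 7 genes and 10 probes were tested, and limma and the rank product called 0, while unadjusted p-values under 0.05 were also 0 in number. The plakophilin gene Pkp2 differed by -0.58 (limma adjusted p = 0.612), the plakophilin gene Pkp3 by 0.50, the plakoglobin gene Jup by 0.20, the desmoglein gene Dsg2 by 0.06, and the other plakin genes Ppl and Evpl by -0.20 and -0.38, so that 3 of the 7 genes had a higher and 4 a lower mean in BTBR. Pkp3 was high on 1 array, BTBR replicate 3 (10.11), and lay between 7.81 and 8.37 on the others.

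Tdo2 encodes the dioxygenase that opens the ring of tryptophan at the start of the kynurenine pathway. Its brighter probe bridges chr3:81772155-81773432 on the minus strand and was well above background on 4 B6 and 3 BTBR arrays. It gave 9.30, 8.81, 8.82 and 9.24 in B6 and 8.11, 7.85, 8.64 and 9.11 in BTBR, where replicate 4 lay within the B6 range and the others below it. The difference was -0.61 (95% interval -1.21 to -0.02, limma adjusted p = 0.250), and without the 3 arrays it was -0.24 (limma adjusted p = 0.690). The second, dimmer probe was well above background on 4 B6 arrays and 1 BTBR array, so that it passed the filter through B6 alone. In a list of tryptophan metabolism, 8 genes and 8 probes were tested, of which Tph2, the gene of the enzyme that starts serotonin synthesis in neurons, lies outside the kynurenine pathway. Of these probes, limma called 0, the rank product called 1, and 1 had an unadjusted p under 0.05. The alternative first enzymes Ido1 and Ido2 differed by 0.91 and -0.30. Ido1 measured 11.45 on B6 replicate 2 and 10.20 and 13.20 on BTBR replicates 1 and 2, the arrays with the highest striatal sums, and 8.56 to 9.16 on the other 5, and the part of striatal transcript in it was not tested. Of the 8 genes, 3 had a higher and 5 a lower mean in BTBR. The enzyme genes Ccbl1 and Got2 differed by 0.13 and 0.10, and Afmid, Haao and Aadat by -0.17, -0.16 and -0.02. Tph2 was among the 5 lower genes and was well above background on 3 B6 arrays and 1 BTBR array.

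Npnt encodes nephronectin, a matrix ligand of integrin alpha 8 beta 1. Its brightest probe, at chr3:132546719-132546778 on the minus strand, gave 9.38, 8.77, 9.32 and 9.17 in B6 and 8.83, 8.57, 8.95 and 9.28 in BTBR. The strains overlapped over most of their range, with a difference of -0.25 (limma adjusted p = 0.515), or -0.17 without the 3 arrays (limma adjusted p = 0.648). The overlapping probes gave -0.17 and -0.12. Itga8, which encodes the integrin alpha 8 subunit, differed by -0.80 with values of 11.55, 10.82, 11.07 and 11.23 in B6 and 10.07, 9.24, 11.00 and 11.16 in BTBR (limma adjusted p = 0.331). As for Lct and Dsp, the slide 1 arrays of BTBR were the lowest. Itgb1, the partner subunit, differed by 0.19, and of the 3 genes and 5 probes tested in this group limma and the rank product called 0, with 0 at an unadjusted p under 0.05.

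Pdyn was the member with a higher mean in BTBR, and its array pattern ran opposite to 8 of the others, Calb1 being the exception. Its probe at chr2:129512323-129512382 on the minus strand gave 13.22, 14.18, 12.68 and 12.64 in B6 and 13.48, 14.81, 13.01 and 12.70 in BTBR. In both strains the highest array was replicate 2, where 8 of the 10 members were at their lowest within the strain. The difference was 0.32 (95% interval -0.78 to 1.43, limma adjusted p = 0.796), and without the 3 arrays it was 0.01. The highest Pdyn levels of each strain thus stood on the arrays with the highest striatal sums (156902 and 373551), and the part of that signal in Pdyn was not tested. Penk, the enkephalin precursor gene that striatal neurons express strongly, differed by 0.44 with SDs of 1.13 in B6 and 1.78 in BTBR. The dynorphin receptor gene Oprk1 differed by 0.54 (limma adjusted p = 0.656), and the processing enzyme genes Pcsk1, Pcsk2 and Cpe by 0.36, 0.21 and -0.20. In the opioid peptide group, 8 genes and 14 probes were tested, of which limma and the rank product called 0 and 4 had an unadjusted p under 0.05.

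Calb1 was the most even member. The median of its 10 spots, fewer where a spot was flagged, was 14.66, 14.79, 14.64 and 14.68 in B6 and 14.75, 14.69, 14.17 and 14.71 in BTBR, with 7 of the 8 arrays within 14.64 and 14.79. BTBR replicate 3 was the only low array, and there the spots ran from 13.73 to 14.61. The difference was -0.11 (95% interval -0.40 to 0.18, limma adjusted p = 0.723), and without the 3 arrays it was -0.22 (limma adjusted p = 0.655). Calb2 and Pvalb, calcium-binding protein genes that mark other neurons, differed by 0.40 and 0.18 (limma adjusted p = 0.844 and 0.756), and each value rested on 1 array. Calb2 measured 13.36 on BTBR replicate 1, the array with the most thalamic transcript, and Pvalb 12.70 on BTBR replicate 2, and on slide 2, without these arrays, both turned, to -0.73 and -0.14.

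For 9 of 10 members the strain difference at the brightest probe was larger on slide 1 than on slide 2, although the slides were not shown to differ. Within slide 1 the median over the 10 brightest probes was -1.07 and 9 of 10 were lower in BTBR, and within slide 2 it was -0.19 and 8 of 10 were lower. Within slide 1, 8.65% of all probes were called, and of the members 4 probes were: Lct (-3.34, limma adjusted p = 0.0471), C1ql2 (-2.45, 0.0346), Trpc6 (-1.34, 0.0260) and Tdo2 (-1.07, 0.0370), each with 2 arrays per strain and the spread pooled over both slides. Within slide 2, 3.7% of all probes were called and 0 member probes were, with 1 member probe, that of C1ql2, at an unadjusted p under 0.05. There C1ql2 differed by -1.28 (limma adjusted p = 0.385) and Trpc6 by -0.56 (limma adjusted p = 0.478), while Lct differed by -0.22, Prox1 by -0.17 and Dsp by 0.10. The test of the difference between slides called 0% of all probes and 0 members in limma, with 2779 probes at an unadjusted p under 0.05, 3 of them member probes. These were the brightest probes of Lct, Tdo2 and Dsp, where the strain difference on slide 2 minus that on slide 1 was 3.12, 0.92 and 1.89.

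**Figure D2:**
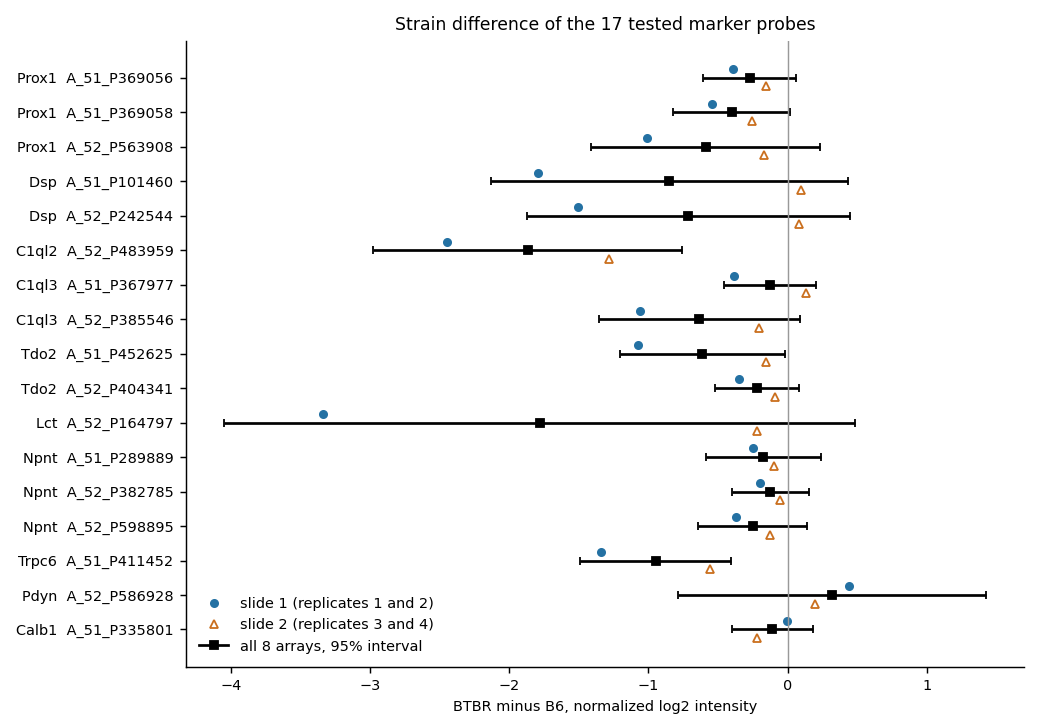
Strain difference of the 17 tested marker probes (BTBR minus B6, log2 intensity), with squares and 95% intervals for all 8 arrays (4 per strain), circles for slide 1 and triangles for slide 2. The intervals of C1ql2, Trpc6 and the brighter Tdo2 probe exclude 0, and the slide 1 values of Lct (-3.34) and Dsp (-1.79) lie far from those of slide 2 (-0.22 and 0.10).

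The arrays with the highest and the lowest levels were largely the same from member to member. B6 replicate 1 was the highest of all 8 arrays for 8 of the 10 members, and BTBR replicate 2 was the lowest for 8. B6 replicate 2 was the lowest of its strain for 8 members, so that within B6 too the array with the most striatal transcript had the lowest granule cell markers. The median deviation of the members from their own mean over the 8 arrays was 0.70 on B6 replicate 1, 0.05, 0.30 and 0.52 on the other B6 arrays, -0.47, -1.07 and -0.09 on BTBR replicates 1 to 3 and 0.24 on BTBR replicate 4. The sum over the thalamic genes was high only on BTBR replicate 1, where the median deviation of the members lay between those of B6 replicate 2 and BTBR replicate 2. B6 replicate 1, where the members were highest, was also the array with the lowest share of spots well above background (57.4%). The part of neighboring tissue and of array quality in the strain differences was not tested. On the 5 arrays left without those 3 (3 of B6 and 2 of BTBR), 9 of 10 members had a lower mean in BTBR. There Pdyn differed by 0.01, and the median difference was -0.25.

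**Figure D3:**
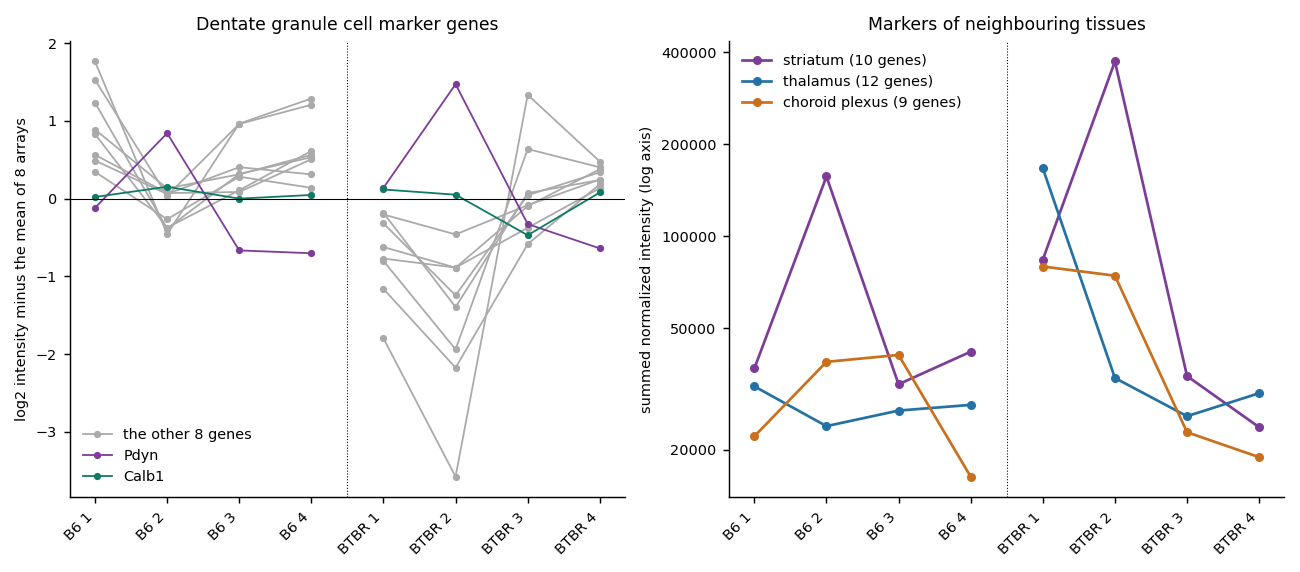
Left, log2 intensity of each member minus its mean over the 8 arrays, with Pdyn and Calb1 in color. Right, summed normalized intensity of striatal (10 genes), thalamic (12) and choroid plexus (9) markers on the same arrays, on a log axis. Most members are lowest on BTBR replicates 1 and 2, where the striatal sums are 83844 and 373551, and Pdyn peaks on both arrays with the highest striatal sum.

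Levels were then set against Prox1 on the same array, a comparison chosen after the data were seen, to show how each member changed relative to the granule cell identity gene. C1ql2 minus Prox1 (log2) was -0.19, -0.47, -0.03 and -0.29 in B6 and -1.73, -1.81, -1.51 and -1.04 in BTBR. All BTBR arrays lay below all B6 arrays, and the B6 arrays were close together. The difference was -1.28, or 2.42-fold, and the exact permutation test gave p = 0.0286, the smallest it can give, which is 0.257 after Benjamini-Hochberg adjustment over the 9 members compared. Of those 9, C1ql2 was the only one whose arrays did not overlap, against 1.37% of 27979 probes. Subtraction adds the spread of Prox1 to probes that do not follow it, and before it the share was 14.2% of all tested probes. The 1.37% is thus no base rate for genes that follow Prox1. With the Prox1 level as a covariate in limma, 6.13% of probes were called, and C1ql2 (-1.09, adjusted p = 0.00339) and Trpc6 (-0.61, adjusted p = 0.0384) were the called members. By subtraction, Trpc6 minus Prox1 differed by -0.36 with overlapping arrays (exact permutation p = 0.143). C1ql3 minus Prox1 differed by -0.04 and Tdo2 minus Prox1 by -0.02, with exact permutation p-values of 0.83 and 0.89. Lct minus Prox1 still differed by -1.19, with values of -0.62, -1.47, 2.15 and 0.996 in BTBR and 0.78 to 1.79 in B6, and so did not separate the strains (exact permutation p = 0.257), and with Prox1 as a covariate Lct differed by -0.32 (limma adjusted p = 0.869). Dsp minus Prox1 differed by -0.26, while Npnt, Calb1 and Pdyn had higher means relative to Prox1 in BTBR, by 0.34, 0.48 and 0.91, all with overlapping arrays (exact permutation p = 0.429, 0.257, 0.400 and 0.457). With Prox1 as a covariate these 3 turned, to -0.01, -0.17 and -0.36, and none was called. For C1ql3 and Tdo2 the fit with Prox1 as a covariate gave -0.18 and -0.24 (limma adjusted p = 0.753 and 0.526). By neither method was a difference of these genes relative to Prox1 detectable with this number of arrays.

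**Figure D4:**
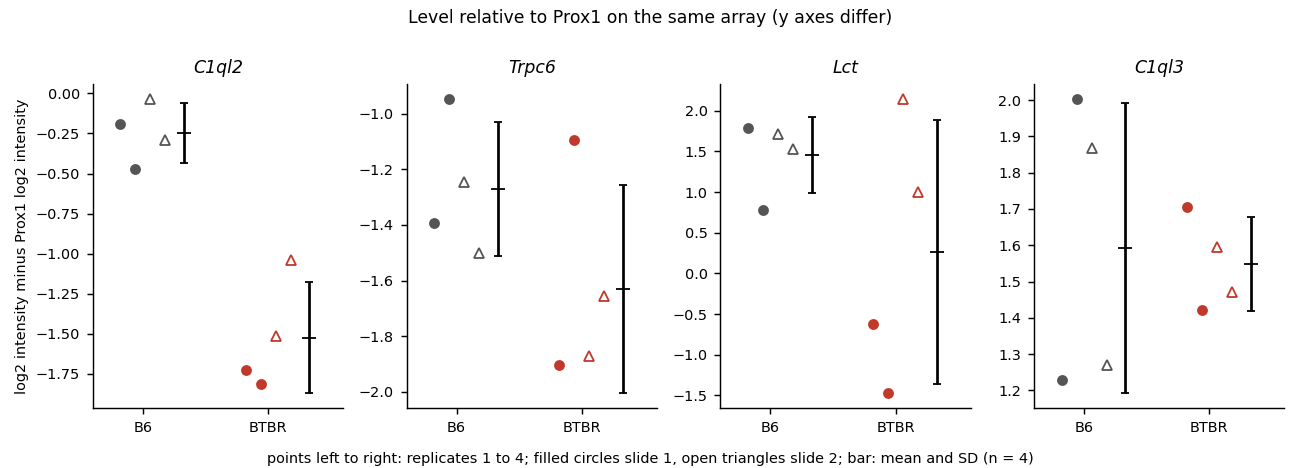
Log2 intensity of C1ql2, Trpc6, Lct and C1ql3 minus that of Prox1 on the same array, 1 point per array with mean and SD per strain (n = 4), symbols as in the plot of levels by array. C1ql2 is the only one of the 4 in which every BTBR array (-1.81 to -1.04) lies below every B6 array (-0.47 to -0.03).

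A second list held 24 further dentate genes. Of the 23 genes tested, 21 had a lower mean in BTBR at their brightest probe, against 8663 of 18399 over all genes, with a median of -0.20. Of 42 probes, limma called 0 higher and 3 lower, against 3.31% and 4.3% of all tested probes. The rank product called 2 of the 42, against 3.91%. Unadjusted p-values under 0.05 were found for 5 of the 42 and for 5182 of all 27982 probes. Medians near -0.20 were not found in dentate lists alone: that of 11 CA1 genes was also -0.20 and that of 8 CA3 genes -0.23. The summed intensity of the second dentate list was 138962 to 196566 in B6 and 124419 to 158784 in BTBR, and that of the CA1 genes 145009 to 173320 and 106842 to 194489, both with overlap. That of the CA3 genes was 131496 to 170437 in B6 and 74452 to 126440 in BTBR, without overlap. The sum of the 10 granule cell markers was 68128 to 88881 in B6 and 54926 to 64617 in BTBR. It weighs the brightest genes most, among them Calb1 and Pdyn, which are also made outside the dentate gyrus. On BTBR replicate 2 these 2 (log2 14.69 and 14.81) made up most of it, the next member being C1ql3 (11.78). The called genes were Dgkh, a diacylglycerol kinase gene (-0.94 at 1 of 2 probes, limma adjusted p = 0.0243, the brighter probe -0.14), Stxbp6, the gene of the syntaxin-binding protein amisyn (-0.55, limma adjusted p = 0.0337), and Synpr, the gene of the mossy fiber vesicle protein synaptoporin (-0.42, limma adjusted p = 0.0452). Stxbp6 measured 10.18, 9.81, 10.06 and 10.21 in B6 and 9.62, 9.18, 9.59 and 9.67 in BTBR. Synpr measured 14.39, 14.12, 13.89 and 14.00 in B6 and 13.65, 13.59, 13.72 and 13.74 in BTBR. Both had arrays that did not overlap between strains, on both slides. As for the members, B6 replicate 1 was the highest array for 12 of these 23 genes and BTBR replicate 2 the lowest for 14.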

How the data were processed

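Each array had 45018 spots read in 1 color (Cy3). The intensity values and flags deposited by the authors came from Agilent Feature Extraction, mean spot intensity and local background unscaled. The log2 values of the matrix deposited by the authors had been background subtracted and quantile normalized. Here local background was subtracted (minimum 0.5) and an offset of 50 applied before log2 and quantile normalization. Control probes and probes not well above background in 75% of the arrays of a strain were left out, flagged spots were dropped, and the median over replicate spots was taken. Limma 3.58.1 (R 4.3.3) fitted strain alone, with Benjamini-Hochberg adjustment over 27982 probes, and the rank product used 100 permutations. A gene was represented by its probe with the highest mean. On simulated data with 200 probes changed, limma recovered 69 at a log2 change of 0.5, 177 at 1 and 196 at 2, with 0, 10 and 8 false calls. Those probes were drawn from all tested probes, with a median SD within strain of 0.13 and no spread shared between probes. Several members varied far more (SD in BTBR of 2.23 for Lct and 1.19 for Dsp). The simulated counts therefore do not give the chance of calling a changed member. The number of arrays limits the precision. Limma p-values set a difference against the spread between mice, while the rank product permutes probes within arrays and does not measure that spread. Named genes were all members, up to 3 called genes of each other list and direct partners of members. Some list genes are not reported here. Members and lists were chosen with earlier results of these data known. Each array was left out in turn, and signal, background correction, scaling, filter, block and moderation were varied.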

Additional observations from a re-analysis of the deposited data

Results flagged for a closer look

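Of 38 strain groups of 4 arrays examined over the 19 member probes, 2 had an array farther from the others than Dixon's 95% limit, and chance gives about 1 in 20. The Npnt probe A_51_P289889 measured 8.33 on B6 replicate 2, with the nearest B6 array at 8.84, a gap of 0.895 of the range. Calb1 measured 14.17 on BTBR replicate 3, with the nearest BTBR array at 14.69, a gap of 0.886 of the range.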

How the results depend on the processing

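The count of member probes called was 1 over all 8 arrays, and so was the count of member genes. Percentages in parentheses are the share of all tested probes called in the same setting, which was 7.61% over all 8 arrays. Both counts were 0 with the processed signal scaled to the 75th percentile (7.29%), with the deposited matrix (7.68%) and without the filter on dim probes (4.88%). So were they within slide 2 (3.7%) and with trend and robust moderation (7.49%). Both were 2, C1ql2 and Trpc6, with median centring (6.87%), with the slide as a block (8.33%) and with Prox1 as a covariate (6.13%). Both were 4 within slide 1 (8.65%) and by rank product (3.91%). They ranged from 0 to 2 when each array was left out (5.48% to 7.8%). They were 1 in the other settings (4.23% to 7.62%). With the replicate number as a block, 1 member probe was called, C1ql2 in place of Trpc6 (limma adjusted p = 0.0142 and 0.0532), and 1650 probes in all. The numbers gave no pairing, since same-numbered arrays correlated by -0.14, 0.51, -0.10 and 0.39 in their deviations from the strain means. Directions turned in 13 of 402 single-probe results, none of them called. Dsp turned within slide 2 (0.0956 and 0.0849) and with the Prox1 covariate (0.0151 and 0.0929). The opposite-strand C1ql3 probe turned within slide 2 (0.133), without the 3 arrays (0.0637), with the covariate (0.0387) and without BTBR replicate 2 (leaving out each array, -0.252 to 0.0062). Npnt turned with the covariate (A_51_P289889, 0.079) and without the 3 arrays (A_52_P382785, 0.0208). Pdyn turned with the covariate (-0.358) and without BTBR replicate 2 (leaving out each array, -0.115 to 0.656), and Calb1 without BTBR replicate 3 (-0.169 to 0.027). The cause was not tested.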

Other observations

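Of 11 markers of immature granule cells tested, 9 had a higher mean in BTBR, with a median of 0.18. Their summed intensity was highest on BTBR replicate 1 (411344), the array with the most thalamic transcript, and was 216629 to 308882 on the other BTBR arrays, against 220902 to 298869 in B6. The called gene was Sox11, a transcription factor of newborn neurons, and its probes disagreed: A_51_P283516 was higher by 0.53 and A_52_P178018 by 0.41, while A_51_P297434 differed by -0.50 (limma adjusted p = 0.00516, 0.0440 and 0.010). Dcx, the marker of migrating neuroblasts, differed by 0.09 (limma adjusted p = 0.855).

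Among 11 CA1 genes tested, 4 were higher and 7 lower, and the called genes were Zdhhc2 (0.39 and 0.53 at 2 of 3 tested probes) and Gpr161 (0.39), both higher in BTBR, and the rank product called 4 probes. Among 8 CA3 genes, 4 were higher and 4 lower, and limma called 1 probe of Cpne4 as lower, which was well above background on 4 B6 arrays but on 1 BTBR array only, and the rank product called 3 probes, while the brightest Cpne4 probe differed by -0.82 without passing (limma adjusted p = 0.198). Of 8 CA2 genes 5 were higher, and of 8 mossy cell genes 3, with 0 called by limma in either group, 2 probes at an unadjusted p under 0.05 in each, and 0 and 1 called by the rank product. The pituitary list had 6 of 7 genes higher, 0 called by limma, 0 at an unadjusted p under 0.05 and 3 by the rank product, and sums of 3232 to 18948 in B6 and 6986 to 26457 in BTBR.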
